A study of Homo sapiens with 6 samples.

Results

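Among the transcripts that were more abundant in Huh7 cells carrying a short hairpin RNA (shRNA) against ABL1, 5 genes outside the classic pathways stood near the top of the list: DCDC1, PBLD, MAP1A, MLLT11 and TMEM144. They were chosen by the size of their rise among abundant transcripts in this same comparison, so their differences between the groups are described here and not tested. Each has 1 row, a single RefSeq transcript, in a table of 10191 rows, of which 8600 had a mean normalized count of at least 10 and were tested. All 5 were among the 8600. The normalized count is the number of reads recovered from the deposited signal, scaled between libraries by the authors' own factors.

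Huh7 is an established human hepatocellular carcinoma line. The control group was 3 libraries from cells with a scrambled shRNA, and the knockdown group was 3 libraries from cells with an ABL1 shRNA. Both groups were grown in DMEM, had undergone puromycin selection and were taken 1 week after it, with no other treatment listed, and total RNA was sequenced. The labels do not say whether replicates were separate cultures, so a p-value here speaks of the variation among these 6 libraries alone, which could be technical. The sources used here do not give how many hairpins or clones were used. In bulk RNA, more cells expressing a gene and more RNA per cell cannot be told apart.

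ABL1 encodes a non-receptor tyrosine kinase that acts on the cytoskeleton and in the nucleus. The 5 genes have separate roles. DCDC1 belongs to the doublecortin family, whose domains bind microtubules, and MAP1A is a large microtubule-associated protein best known from neurons, cut after translation into a heavy and a light chain. PBLD, also called MAWBP, was found as a binding partner of STRAP, a WD-repeat protein that restrains TGF-beta receptor signalling. MLLT11, also called AF1q, is a small protein first found fused to KMT2A in leukaemia and later described as a cofactor of the transcription factor TCF7. TMEM144 is a multi-pass membrane protein of the drug/metabolite transporter superfamily, to which the nucleotide sugar transporters of the SLC35 family belong.

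The sequences before the start sites are shown because the 5 genes were higher in the same libraries. They are from RefSeq (GRCh38.p14), all 5 genes were matched by symbol, and the start used was the RefSeq start nearest to that of the transcript counted. RefSeq gives MAP1A another start upstream of the one used. For MAP1A the whole window of 250 bases before the start used is given, at chr15:43517358-43517607 on the plus strand, with GC boxes in capitals.
MAP1A: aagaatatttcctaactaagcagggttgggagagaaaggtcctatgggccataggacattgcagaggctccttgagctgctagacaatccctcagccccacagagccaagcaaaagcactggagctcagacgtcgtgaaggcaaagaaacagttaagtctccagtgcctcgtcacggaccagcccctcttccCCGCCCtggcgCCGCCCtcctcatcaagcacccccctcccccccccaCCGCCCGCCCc

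For the other genes GENCODE places transcribed bases inside this window, and only 30 bases around 1 motif are given, with the motif in capitals. Distances are from the RefSeq start. The stretches of DCDC1, MLLT11 and TMEM144 lie wholly inside the first exon of the counted GENCODE model. They are therefore after the start of that model and not before it, and the MLLT11 window ends 2638 bases after it. The DCDC1 stretch holds an AP-1 site 78 bases before the start (chr11:30992592-30992621, minus strand). The PBLD stretch holds a GC box 1 base before it (chr10:68332929-68332958, minus strand). The MLLT11 stretch holds a GC box 48 bases before it (chr1:151060331-151060360, plus strand). The TMEM144 stretch holds a CCAAT box, read on the other strand, 129 bases before it (chr4:158210340-158210369, plus strand).
DCDC1: tgctgaggataTGACTCAgcaaatcaccat
PBLD: ctggcttaaaacccttcgccaccGGGCGGc
MLLT11: tcaggcaggaggGGGCGGggaatccttccg
TMEM144: agtcaaggctggATTGGcgctcttcgcgag

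These counts are over the window nearest to each counted transcript's start. The GC box (GGGCGG) was in 4 of the 5, all but that of DCDC1, and in 42.6% of the 35116 RefSeq windows of this length. The CCAAT box (CCAAT) was in those of MLLT11 and TMEM144, and in 32.0% of all windows. The AP-1 site (TGANTCA) was in that of DCDC1 alone, and in 6.57% of all. The TATA box (TATAAA), E-box (CACGTG), CRE (TGACGTCA), ETS site (CCGGAAG) and CSL site (GTGGGAA) were in 0 of the 5 windows, and in 10.7%, 6.34%, 1.65%, 8.52% and 5.43% of all windows. Both strands were searched, and matches may overlap, as the last GC boxes of MAP1A do.

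The windows also differed in base composition. That of DCDC1 was 41.2% G and C with 1 CpG, against a median of 58% and 11 CpGs over all windows. PBLD had 48.4% and 12 CpGs, MLLT11 52% and 7, MAP1A 59.6% and 9, and TMEM144 61.6% and 12. RefSeq gives DCDC1 another start 377054 bases further upstream, and the window before it (chr11:31369740-31369989, minus strand) differed: it was 61.6% G and C with 24 CpGs and held 1 GC box, 1 CCAAT box, 1 TATA box, 1 ETS site and 0 AP-1 sites. With that window in place of the nearer one, all 5 genes would have a GC box. The other RefSeq start of MAP1A is 6672 bases upstream of the counted model, with its window at chr15:43510704-43510953 on the plus strand. That window was 70.4% G and C with 18 CpGs and held 2 GC boxes and 2 CCAAT boxes. For either gene, which start the reads came from cannot be read from 1 row per transcript.

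The 6 libraries held 6651413 to 10487862 recovered reads. Over the 8600 transcripts tested with limma, 2105 rose (24.5%) and 2355 fell (27.4%) at an adjusted p of 0.05, and the median log2 change was 0.0018. For 28.2% of the transcripts every knockdown library lay above every scrambled library. The targeted gene had 2 rows: ABL1 NM_007313 had 88, 64 and 76 reads in scrambled against 14, 9 and 9 in knockdown cells (log2 change -2.62, SE 0.26, limma adjusted p = 4.11e-06). The second, ABL1 NM_005157, had 11, 6 and 11 reads against 18, 17 and 24 (log2 change 1.15, SE 0.36, limma adjusted p = 0.0180). Of 9 hepatocyte markers 6 had a row and 5 were tested. These 5 were abundant in all libraries, with summed normalized counts of 461664 to 520998 in scrambled and 395245 to 440537 in knockdown cells. AFP was the largest part, with means of 235839 and 220476. FGB had 15 scrambled and 41 knockdown reads and was under the minimum count.

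DCDC1 showed the widest difference of the 5. Its normalized counts were 143, 204 and 202 in scrambled cells and 1455, 1561 and 1346 after knockdown. Scrambled replicate 1 was the lowest of all, and the groups did not overlap: the lowest knockdown value was 6.60 times the highest scrambled value. The means were 183 ± 34.3 and 1454 ± 107 (SD, n = 3 each), a log2 change of 3.00 (SE 0.13) on the log2(normalized count + 1) scale. Pooled over libraries the reads went from 569 to 4173, and the ratio corrected for library scale was 8.05 with an exact 95% interval of 7.37 to 8.80, which covers counting error only. The transcript moved from percentile 49.5 to percentile 86.8 of the levels of all transcripts tested.

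The DCDC1 row, NM_020869, lies on chromosome 11, minus strand, 30863604 to 30992686 (GENCODE 29 model, GRCh38), with 20 exons and 4758 bases, of which 2670 are coding. The last exon alone has 1729 bases. Only 2 of the bases of this model are in none of the other 7 GENCODE models of the gene, so reads from another DCDC1 transcript could fall on it. The sources used here do not give how such reads were treated.

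MAP1A, the other microtubule-associated gene, had the fewest reads of the 5. It had normalized counts of 86.7, 71.7 and 69.4 in scrambled cells and 387, 329 and 458 after knockdown. Here scrambled replicate 1 was the highest of its group, where DCDC1 was lowest, and the lowest knockdown library was still 3.79 times the highest scrambled one. The means were 76.0 ± 9.38 and 391 ± 64.7 (SD, n = 3 each), a log2 change of 2.34 (SE 0.15). The pooled reads were 242 and 1131, with a scaled ratio of 5.13 (exact 95% interval 4.46 to 5.92).

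The MAP1A row, NM_002373, is the longest of the 5 models. It lies on chromosome 15, plus strand, 43517625 to 43531620, with 6 exons and 10258 bases, 8409 of them coding. Exon 4 holds 8185 bases. All but 76 bases (0.741%) are shared with the gene's 1 other GENCODE model.

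PBLD had normalized counts of 81.7, 138 and 116 in scrambled cells and 497, 630 and 601 after knockdown. Replicate 1 was the lowest of its group on both sides, and the lowest knockdown value was 3.60 times the highest scrambled value. The means were 112 ± 28.3 and 576 ± 69.9 (SD, n = 3 each), a log2 change of 2.38 (SE 0.17). Pooled reads were 345 and 1648, with a scaled ratio of 5.24 (exact 95% interval 4.67 to 5.91).

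The PBLD row, NM_022129, lies on chromosome 10, minus strand, 68282660 to 68332927, with 10 exons and 2587 bases, 864 of them coding. None of its bases is outside the other 6 models of the gene. The neighbouring gene HNRNPH3 (plus strand, 68331174 to 68343191) spans 144 of its exon bases, and 0 of these lie over HNRNPH3 exons.

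MLLT11 varied little between replicates in both groups. Its normalized counts were 241, 243 and 249.6 in scrambled cells and 1133, 1152 and 1084 after knockdown. No library stood apart within its group, and the lowest knockdown value was 4.34 times the highest scrambled value. The means were 245 ± 4.47 and 1123 ± 34.8 (SD, n = 3 each), a log2 change of 2.19 (SE 0.09). Pooled reads were 772 and 3228, with a scaled ratio of 4.59 (exact 95% interval 4.24 to 4.97).

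The MLLT11 row, NM_006818, lies on chromosome 1, plus strand, 151057758 to 151068497, with 2 exons and 4075 bases in the GENCODE model, of which only 270 are coding. RefSeq starts the gene at 151060397, inside the first GENCODE exon of 2796 bases, so the length and the level per kilobase of this gene are uncertain. The gene CDC42SE1 on the minus strand (151050971 to 151070325) covers it, and 473 bases (11.6%) lie over CDC42SE1 exons. The counting is not stated to use strand, so reads of the 2 genes in those bases cannot be told apart, and CDC42SE1 was not analysed here.

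TMEM144 had the highest normalized count of the 5 in scrambled cells and the smallest difference. Its normalized counts were 308, 297 and 300.2 in scrambled cells and 1223, 1234 and 1083 after knockdown. Knockdown replicate 3 was lower than the other two, and was still 3.52 times the highest scrambled library. The means were 302 ± 5.45 and 1180 ± 84.1 (SD, n = 3 each), a log2 change of 1.96 (SE 0.09). Pooled reads were 954 and 3392, with a scaled ratio of 3.90 (exact 95% interval 3.63 to 4.20).

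The TMEM144 row, NM_018342, lies on chromosome 4, plus strand, 158210249 to 158255411, with 13 exons and 3442 bases, 1035 of them coding. Exon 13 holds 1968 bases. Of the whole model 124 bases (3.60%) are in none of the gene's 16 other models.

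**Figure D1:**
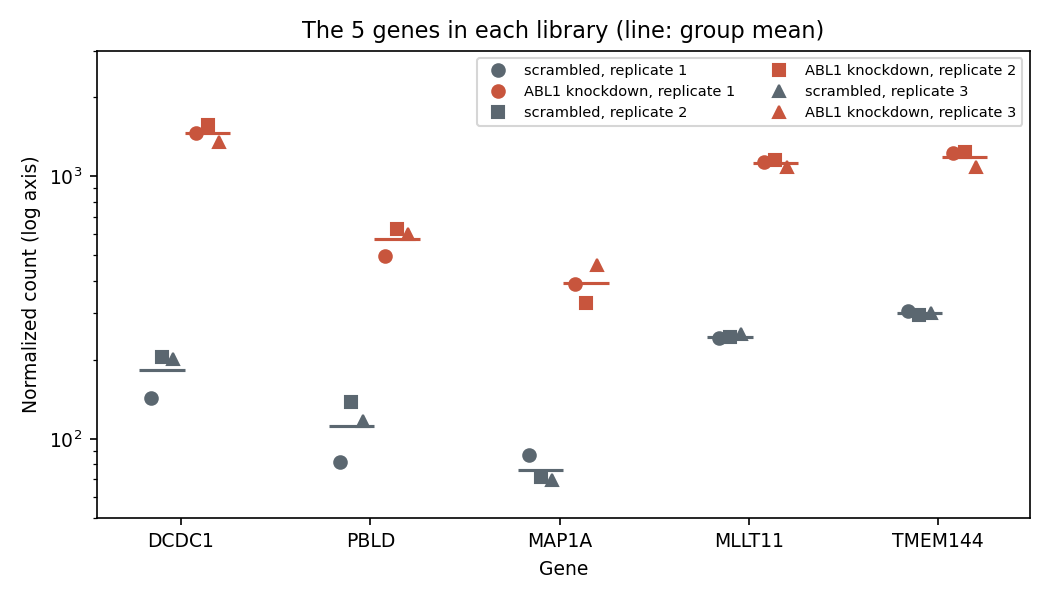
Normalized count (log axis) of the 5 genes in each of the 6 libraries, grey for scrambled and red for ABL1 knockdown, with a marker per replicate and a line at each group mean (n = 3). Scrambled libraries sit between 69.4 (MAP1A) and 308 (TMEM144) and knockdown libraries between 329 (MAP1A) and 1561 (DCDC1), with no overlap between the groups for any of the 5 genes.

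Per kilobase of transcript, by the GENCODE models, the 5 genes had another order than by count. In scrambled cells the level was 87.6 normalized counts per kilobase for TMEM144, 60.02 for MLLT11, 43.3 for PBLD, 38.5 for DCDC1 and 7.40 for MAP1A. PBLD and DCDC1, neighbours in this order, differed by less than the spread of their libraries. In knockdown cells it was 343 for TMEM144, 306 for DCDC1, 276 for MLLT11, 223 for PBLD and 38.2 for MAP1A. There TMEM144 and DCDC1 overlapped in their libraries' values per kilobase. The place of MLLT11 turns on its length: with the RefSeq start it is 1436 bases, or 2483 with the RefSeq end as well, which gives 170.3 or 98.5 per kilobase in scrambled and 782 or 452 in knockdown cells, above the other 4 genes in both groups. MAP1A was last in both, at percentile 13.3 and then 40.1 of all transcripts with a model. TMEM144 moved from percentile 55.1 to 80.8, DCDC1 from 40.7 to 79.0 and PBLD from 42.6 to 73.7. The median over all transcripts with a model was 66.7 per kilobase, taken from means over all 6 libraries. DCDC1, PBLD, MAP1A and, by its GENCODE length only, MLLT11 were under it in scrambled cells.

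The values that chose the genes place them as follows. Ranked by log2 change among transcripts that rose, had no overlap between groups and had a mean normalized count of at least the median of 191, DCDC1 was 3, PBLD 7, MAP1A 8, MLLT11 10 and TMEM144 12 of 1071. The other transcripts above TMEM144 were UCA1 (3.28), UGT2B11 (3.01), MT1X (2.78), B3GNT9 (2.45), F13B (2.39), MT2A (2.21) and SULT1E1 (2.16). Just inside the limit was TMEM144 at 1.96, and just outside it were GJA1 at 1.95, LGALS2 at 1.90 and FLRT2 at 1.90. Another 96 transcripts rose at least as much as TMEM144 with a mean count under the median. The 24.5% of transcripts that rose and the 28.2% without overlap are the background to these ranks, from which nothing is read about the 5 genes.

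**Figure D2:**
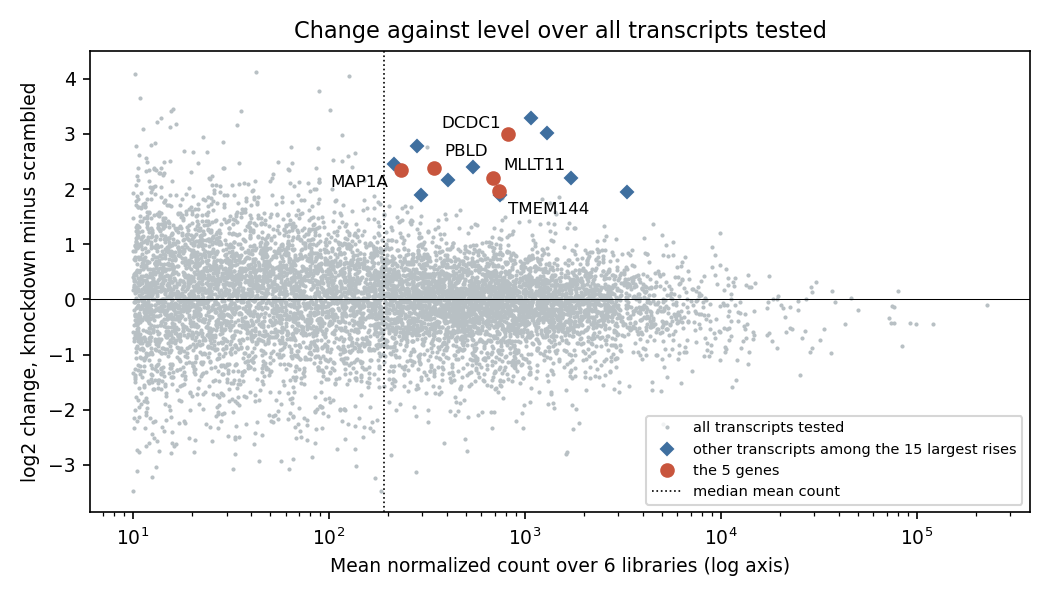
Log2 change (knockdown minus scrambled) against the mean normalized count over 6 libraries (log axis) for the 8600 transcripts tested, with the 5 genes in red and the other transcripts among the 15 largest abundant rises in blue. The dotted line is the median mean count of 191, and the 5 genes lie to its right at log2 changes of 1.96 to 3.00.

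The spread between replicates differed among the 5 genes. In the scrambled libraries the coefficient of variation (CV) was 1.83% for MLLT11 and 1.81% for TMEM144, under the 6.28% and 5.66% that read counting alone would give. Of transcripts within 1.5 times their level, 2.89% and 2.88% had a smaller CV. PBLD varied most, with a scrambled CV of 25.3% against 9.38% from counting, and DCDC1 followed with 18.8% against 7.29%. Among transcripts of like level 89.5% and 85.9% varied less than these. In both genes the low value was scrambled replicate 1, and without that library the log2 change was 2.17 for PBLD and 2.83 for DCDC1.

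In the knockdown libraries MAP1A was the most variable, with a CV of 16.5% against 5.23% from counting, and 91.2% of transcripts of like level varied less. PBLD followed at 12.1% against 4.27%. DCDC1 and TMEM144 had 7.38% and 7.12%, near the medians of 6.30% and 6.60% for their levels, and MLLT11 had 3.10%, near the 3.05% from counting. Each of these CVs rests on 3 libraries.

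**Figure D3:**
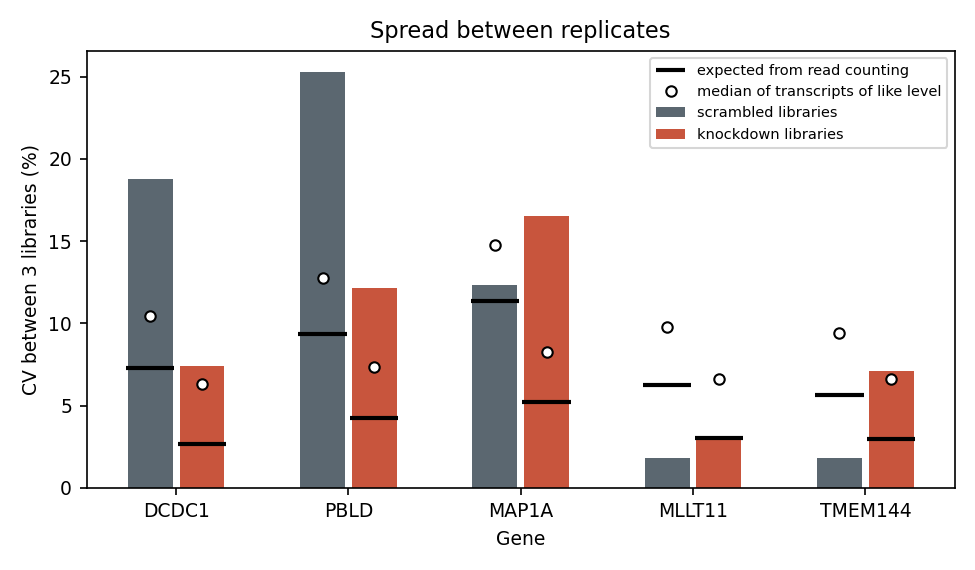
Coefficient of variation (%) between the 3 libraries of each group for the 5 genes (grey bars scrambled, red bars ABL1 knockdown), with a black line at the value expected from read counting and an open circle at the median of transcripts of like level. PBLD and DCDC1 are the widest in scrambled cells (25.3% and 18.8%), MAP1A in knockdown cells (16.5%), and MLLT11 and TMEM144 lie under 2% in scrambled cells.

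Each gene was also set beside the transcripts whose values over the 6 libraries were most like its own. Likeness was the Euclidean distance of log2 values after subtracting the transcript's scrambled mean, over 6 libraries and 4295 transcripts of at least median level, as a description only. DCDC1 was nearest to UGT2B11, a UDP-glucuronosyltransferase (distance 0.16), with counts of 246, 304 and 309.6 against 2249.8, 2541 and 2144. Both had their lowest library in scrambled replicate 1 and their highest in knockdown replicate 2. UCA1, a long non-coding RNA, was next at 0.60.

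PBLD was nearest to SULT1E1, the oestrogen sulfotransferase (0.42), with counts of 108, 183 and 154 against 576, 783 and 618, the same low replicate 1 on both sides. MAP1A was nearest to B3GNT9, a glycosyltransferase gene (0.35), with 72.5, 57.2 and 65.7 against 321, 344 and 422, both highest in knockdown replicate 3. MLLT11 was nearest to MT2A, a metallothionein (0.14), with 619, 628 and 575 against 2916, 2860 and 2655. MT2A was also the next after the nearest for PBLD (0.70) and MAP1A (0.52), and F13B, a coagulation factor subunit, was that for MLLT11 (0.47).

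TMEM144 had 2 near transcripts, GJA1, which encodes connexin 43 (0.23), and LGALS2, a galectin (0.24). Among the 5 genes themselves MLLT11 and TMEM144 were closest (0.42), then MAP1A and MLLT11 (0.55) and PBLD and MLLT11 (0.67). DCDC1 was far from all of them, at 1.13 from PBLD and 1.85 from TMEM144. UGT2B11, MT1X and MT2A belong to families of near-identical genes, between which reads can be divided, so their values are uncertain. These distances are set mostly by the size of the difference between the groups, which was used in choosing the genes.

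The genes next to the 5 on the chromosome were mostly not past the threshold. Of the 10 nearest genes with a row, 8 were tested, 1 rose and 0 fell with limma, with a median log2 change of 0.22. Of all transcripts 24.5% rose and 27.4% fell, and 8 genes are too few to be set apart from these shares. At an unadjusted p under 0.05, and also with voom weights, the falls were again 0 of 8. The 1 that passed was ARL14EP, 525380 bases from DCDC1, with 284, 334 and 342 against 493, 611 and 460 normalized counts (log2 change 0.70, SE 0.12, limma adjusted p = 0.000458). DNAJC24 starts 121 bases from the upstream RefSeq start of DCDC1, on the other strand. It had 221, 270.1 and 277 against 300.3, 359 and 270.3, and its log2 change of 0.27 (SE 0.13) did not pass (limma adjusted p = 0.109).

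For MLLT11, C1orf56 at 8977 bases had a log2 change of 0.36 (limma adjusted p = 0.0920) and GABPB2 at 1217 bases had 0.17 (0.673). For PBLD, RUFY2 at 8184 bases had -0.59 (limma adjusted p = 0.0918), and ATOH7 was under the minimum count. For MAP1A, ZSCAN29 at 139911 bases had -0.17 (limma adjusted p = 0.213), and CKMT1B, with a near-identical copy in the genome, was under the minimum. For TMEM144, CTSO at 2256620 bases had -0.03 (limma adjusted p = 0.982) and C4orf46 at 411259 bases had 0.34 (0.374). The CTSO libraries had 67.5, 12.3 and 6.57 against 70.4, 10.2 and 7.22 (SE 0.83), so whether it changed cannot be read from this row. Counts were also low for RUFY2, GABPB2 and C4orf46, with scrambled means of 47.5, 21.8 and 29.2 and SEs of 0.28, 0.31 and 0.31. For these a change of moderate size could be missed. C1orf56 passed with totals made equal (adjusted p = 0.0162), with a replicate block (0.0419) and without knockdown replicate 2 (0.0256), RUFY2 passed without knockdown replicate 3 (0.0403), and DNAJC24 passed with equal totals (0.0177).

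**Figure D4:**
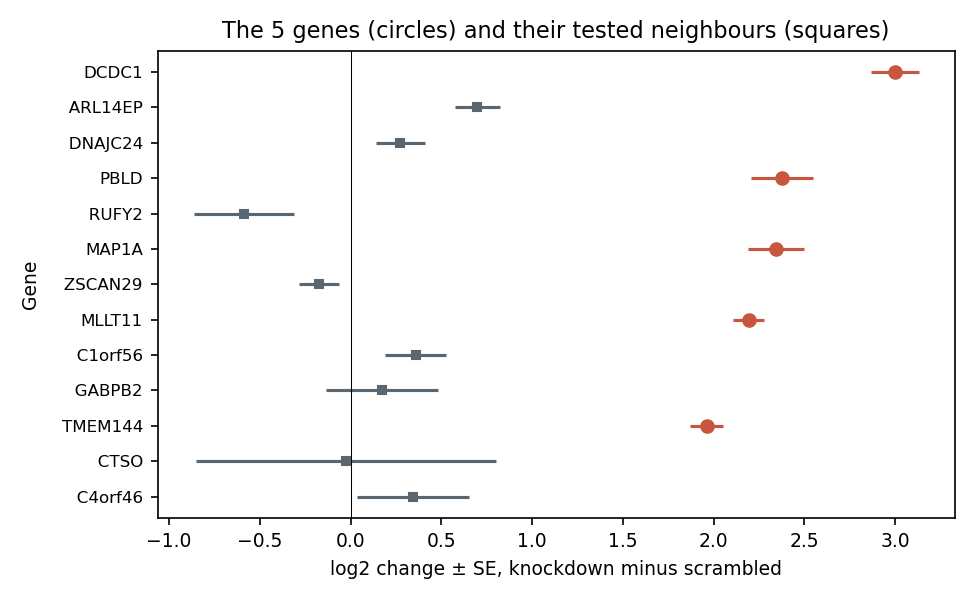
Log2 change ± SE (knockdown minus scrambled, limma, 3 libraries per group) of the 5 genes (red circles) and of their 8 tested neighbours on the chromosome (grey squares). The 5 genes lie at 1.96 to 3.00, and the highest neighbour is ARL14EP at 0.70.

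The families of the 5 genes were then described from lists. The doublecortin family gave almost no comparison: of 11 genes 3 had a row, and DCDC1 was the only one tested. DCDC2B had 24 scrambled and 29 knockdown reads and RP1L1 had 26 and 6, both under the minimum count.

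Most tested genes on a list of structural microtubule-associated proteins, MAP1A left out, rose, but the list also holds LC3B genes. Of 18 genes listed 7 had a row, MAP1A included. Of the 6 others tested 5 rose, 0 fell and 1 did not pass. The falls were also 0 at an unadjusted limma p under 0.05 and with voom weights. The median log2 change was 0.94, against 24.5% rising, 27.4% falling and a median of 0.0018 over all transcripts. With 6 genes, 0 falls cannot be set apart from that share. The count takes MAP1LC3B and MAP1LC3B2 as separate genes, though they may be 1 signal and LC3B is known from autophagosomes. The other rises were MAP1B, MAP4 and MAP10. MAP1B, the closest relative of MAP1A, had 354, 395 and 418 normalized counts against 561, 505 and 638 (log2 change 0.54, SE 0.11, limma adjusted p = 0.00126). MAP1LC3B, the autophagosome protein LC3B, had 1087, 1259 and 1323 against 2381, 2567 and 2310 (log2 change 0.99, limma adjusted p = 1.43e-06). In both, every knockdown library was above every scrambled one.

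MAP1LC3B2 is a near-identical copy of MAP1LC3B, so reads may be divided between them, and both values, the second a log2 change of 1.22 (limma adjusted p = 2.82e-05), are uncertain as separate ones. The following genes were picked after their values were seen. MAP10 had a log2 change of 0.97 (limma adjusted p = 0.00274) at means of only 27.3 and 54.5, and MAP4, a microtubule stabiliser outside neurons, had 0.92 (0.0119). Over the alternatives the rises on this list, MAP1A left out, ran from 4 to 6. The MAP4 libraries overlapped, at 208, 145 and 277 against 268, 349 and 605, and with no mean-variance trend its adjusted p was 0.0847, the highest over the alternatives, whose lowest was 1.42e-06. MAP6D1 at 0.33 did not pass (limma adjusted p = 0.177), but did with equal totals (0.50, adjusted p = 0.0428).

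Proteins that bind microtubule ends or destabilise microtubules were near the background: of 6 tested, 2 rose, 1 fell and 3 did not pass, with a median of -0.17, where 24.5% and 27.4% of all transcripts rose and fell. The falls were 2 with a replicate block and without knockdown replicate 2, knockdown replicate 3 or scrambled replicate 2. MAPRE1, the end-binding protein EB1, had a log2 change of 0.46 (limma adjusted p = 9.13e-05) and CAMSAP1, a minus-end binder, 0.62 (6.54e-05), while EML6 fell by 0.80 on the log2 scale (0.000671).

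Since MAP1A and MLLT11 are known from neurons, neuronal markers were counted too. Of 25 markers 4 had a row and 3 were tested, of which 2 rose, where 24.5% of all transcripts rose, and their summed normalized count was 444 to 532 in scrambled and 1249 to 1269 in knockdown cells. Most of this sum was UCHL1, a ubiquitin hydrolase, at 385, 464 and 387 against 1138, 1175 and 1169.9 (log2 change 1.498, limma adjusted p = 9.32e-08). SYP (synaptophysin) had 0.61 (limma adjusted p = 0.0137), which became 0.0502 without knockdown replicate 1 and 0.0522 without scrambled replicate 1. INA was near the minimum at 11.9 and 12.8, NEFH had 42 and 15 reads, and DCX, MAP2, MAPT and TUBB3 were not analysed here.

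Other cell types gave the following summed counts, to be read against 24.5% of all transcripts rising and 27.4% falling. Fibroblast and stellate markers summed to 8912 to 9908 in scrambled and 13259 to 14609 in knockdown cells, with 4 of 6 tested rising and 1 falling. Most of this sum was COL1A2, with means of 7820 and 11998, while COL1A1 fell from 741 to 365. The other rises were PDGFRA, from 335 to 1200, and LUM and COL3A1, from scrambled means of only 23.7 and 31.3. Biliary markers summed to 13401 to 14205 and 8928 to 9394, with 1 of 7 rising and 5 falling. Endothelial markers summed to 176 to 204 and 125 to 147 (1 of 4 rose, 3 fell), and immune markers to 5714 to 6331 and 6544 to 7489 (1 of 3 rose, 2 fell), of which LYZ made up nearly all. The endothelial falls were 2 without knockdown replicate 1 or 2 or scrambled replicate 1 or 2. The immune rise, LYZ, was lost without knockdown replicate 1 or 2 or scrambled replicate 1 or 3 (adjusted p of 0.0674 to 0.110), and 1 of the 2 falls, FCER1G, without replicate 1 or 3 of either group (0.0550 to 0.0685). Of the hepatocyte markers 3 of 5 fell, ALB, TF and APOB, and all 3 calls were lost under quantile normalization (adjusted p = 0.200, 0.741 and 1). That method gives equal ranks equal values, which can remove a difference at levels as high as theirs (scrambled means 84502, 114459 and 53457). The log2 change of APOB under it was 0, so this loss cannot show whether the 3 genes fell. The APOB call (adjusted p = 0.0466) was also lost with equal totals (0.796), median-of-ratios scaling (0.0712), no filter (0.0551), no trend (0.108) and a pseudocount of 5 (0.0537), and without any 1 library other than knockdown replicate 3 (0.0714 to 0.178). The part of these markers in the values of the 5 genes was not tested.

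Around PBLD, genes of TGF-beta signalling moved in both directions. Of 12 tested 4 rose, 5 fell and 3 did not pass, with a median of -0.06, where 24.5% and 27.4% of all transcripts rose and fell. STRAP, the partner of PBLD, picked after its value was seen, had 2484, 2762 and 2668 against 3724, 3912 and 3586 normalized counts. The groups did not overlap, and the log2 change was 0.50 (SE 0.07, limma adjusted p = 8.98e-05), beside 2.38 for PBLD. SMURF2, a ubiquitin ligase for the pathway's receptors, rose by 1.20 on the log2 scale (limma adjusted p = 2.71e-05).

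Among the falls were a ligand, a corepressor and a matrix protein. The ligand TGFB1 fell by 0.78 on the log2 scale (limma adjusted p = 1.25e-05), the corepressor SKI fell by 0.92 (1.13e-05) and TGFBI, a matrix protein induced by the ligand, fell by 0.999 (3.21e-07). Of genes picked after their values were seen, SMAD3 had -0.77 (limma adjusted p = 0.00513), SMAD4 0.29 (0.00408) and the ligand TGFB3 0.83 (0.00879). LTBP1 had -0.64 (limma adjusted p = 0.0335), which became 0.118 without knockdown replicate 1, and 0.136 and 0.111 without scrambled replicate 1 and 3.

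For MLLT11, the other fusion partners of KMT2A were near the background. Of 11 others tested 2 rose, 3 fell and 6 did not pass, with a median of 0.05, where 24.5% and 27.4% of all transcripts rose and fell. With equal totals 4 rose. The falls were 4 with a replicate block and without knockdown replicate 2, where MLLT6 passed (limma adjusted p = 0.00569 and 0.000157). Its knockdown values were 109, 279 and 81.5, so replicate 2 decided that call. EP300 passed as a rise with equal totals, quantile normalization and a replicate block, and without knockdown replicate 2 (limma adjusted p of 0.00280 to 0.0396). MLLT1, a subunit of elongation complexes, rose by 0.62 on the log2 scale (limma adjusted p = 0.000355), and the scaffold AFF4 fell by 0.97 (7.57e-07) and the ubiquitin ligase CBL by 0.94 (1.79e-05). EPS15 at 0.61 and TET1 at -0.48 also passed, named here to complete the count. Of the TCF/LEF factors and beta-catenin 3 were tested and 1 fell, where 27.4% of all transcripts fell. TCF7, the described partner of MLLT11, had -0.19 (limma adjusted p = 0.670) at a mean of only 30.5 in scrambled cells, and CTNNB1 had -0.09 (0.874). The CTNNB1 row was lower still, with a scrambled mean of 25.9 and knockdown values of 12.7, 50.9 and 21.7 (SE 0.41). Over the alternatives its log2 change ran from -0.61 to 0.35, so whether it changed cannot be read from this row. TCF7L1, the repressor of the family, had 594, 547 and 683 against 277, 229 and 228, a log2 change of -1.31 (SE 0.12, limma adjusted p = 1.63e-06).

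For TMEM144, the related transporters were also near the background. Of 15 others tested 5 rose, 5 fell and 5 did not pass, with a median of 0.14, beside 24.5% and 27.4% over all transcripts. The fall of TMEM241 (limma adjusted p = 0.0392) was lost with equal totals (0.172) and no trend (0.0935). It was also lost without any 1 library other than knockdown replicate 2 (0.0622 to 0.164). The rise of SLC35E1 (limma adjusted p = 0.0112) was lost with no trend (0.0582) and without knockdown replicate 3 (0.0515). SLC35A5 passed with equal totals (0.0187). SLC35E3 rose by 0.97 on the log2 scale (limma adjusted p = 1.66e-06), from 443 ± 19.6 to 869.8. SLC35F6 fell by 1.40 (limma adjusted p = 5.61e-06) and NIPAL3, of the magnesium transporter family, fell by 1.30 (1.06e-06). The remaining calls, picked after their values were seen, are named to complete the count. NIPAL2 at 0.83 (limma adjusted p = 0.000309), SLC35D1 at 0.37 (0.000927) and SLC35A4 at 0.33 (0.00357) rose. SLC35B4 at -0.62 (limma adjusted p = 0.000279) and NIPAL1 at -0.73 (0.000661) fell.

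**Figure D5:**
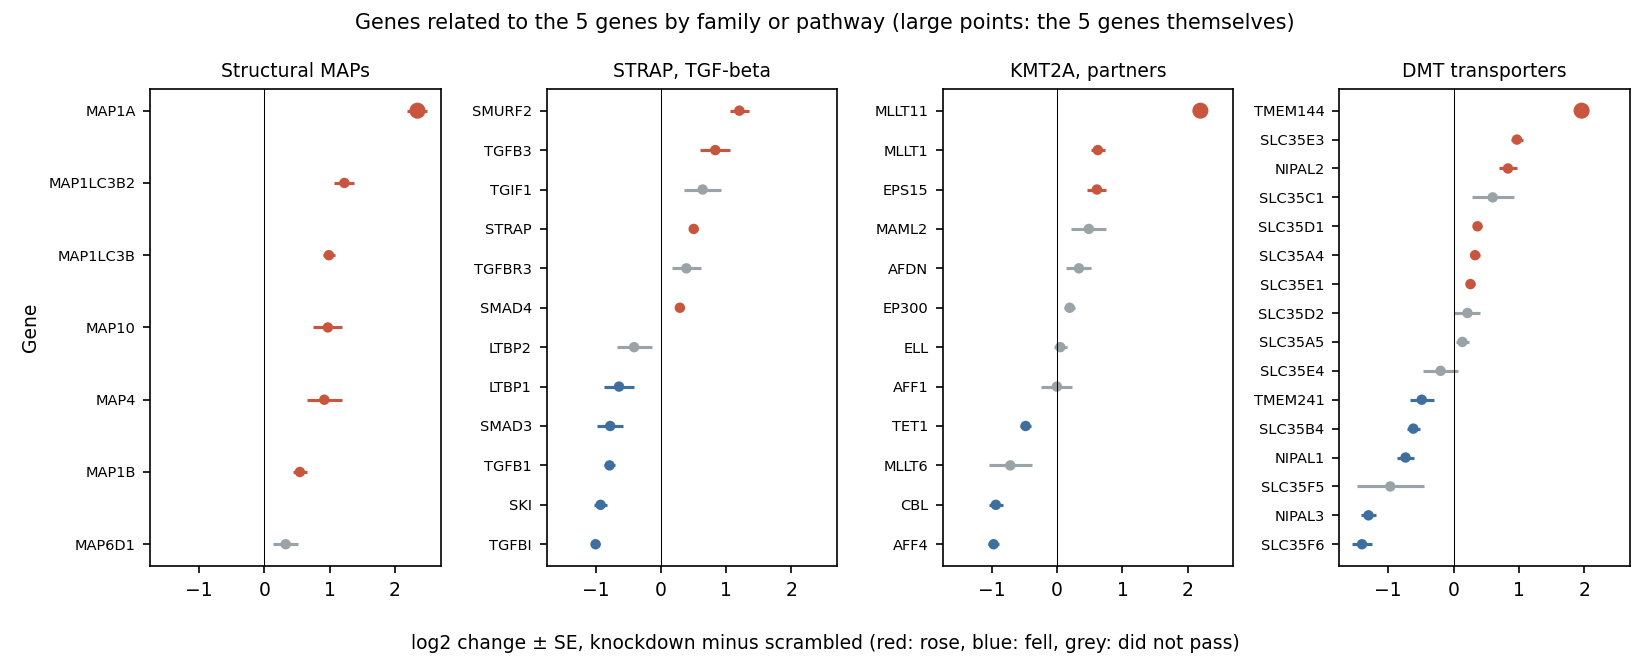
Log2 change ± SE (knockdown minus scrambled, limma, 3 libraries per group) of the tested genes of 4 lists, red where the gene rose, blue where it fell and grey where it did not pass, with large points for MAP1A, MLLT11 and TMEM144. The structural microtubule-associated proteins lie to the right of 0, with MAP1A at 2.34 above the others, and the other lists spread to both sides.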

How the data were processed

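RNA-seq libraries from 3 scrambled and 3 ABL1 knockdown samples were grouped by their titles. The deposited table gives 1 signal value per transcript and library, which the authors had transformed and scaled. HISAT2 2.0.4, HTSeq 0.6.1 and build hg38 are named, with no role, per the submitters' processing notes, and the annotation and strand setting were not stated in the sources. By the numbers themselves, each squared signal equals a step per library times the reads plus 0.375, and this gave whole reads, within 0.05, for 100% of rows. The normalized count is the reads times the relative step. The planned test was for normalized counts and was kept for these. Shared reads and overlapping models can therefore affect a row.

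Rows with a mean of at least 10 were tested with limma 3.58.1 in R 4.3.3 (lmFit, eBayes with trend, two-sided) on log2(normalized count + 1), with Benjamini-Hochberg adjustment over all 8600 and a threshold of 0.05. The fold of low genes is understated on this scale. The script was tested on simulated data. Rows were matched to RefSeq for 97.8%, and models and coordinates were from GENCODE 29 (94.6% of tested rows). A gene with several rows entered a list by its most abundant one. From the list of TGF-beta signalling, 1 gene is not reported here and was left out of its counts.

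The 5 genes and the lists were chosen with earlier results of these data known. Named genes were the 5, the rises ranked around them, the 2 most alike transcripts and the nearest gene on each side of each, up to 4 genes per list by smallest p, and ABL1. Intervals cover counting error only. Same-numbered libraries did not all deviate together, so the numbers were not used as pairs. Alternatives changed the pseudocount, filter, scaling, weights, trend, summing per gene, block and libraries. Protein sequences were not used here.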

Additional observations from a re-analysis of the deposited data

How the results depend on the processing

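All 5 genes kept every knockdown library above every scrambled library with equal totals, median-of-ratios scaling and quantile normalization. The other alternatives kept the same normalized counts or left out 1 library, so they could not bring an overlap. The 5 genes were chosen as large rises, so this is a description only. Over the 17 alternatives the log2 changes ran from 2.83 to 3.17 for DCDC1 and 2.17 to 2.55 for PBLD. They ran from 2.22 to 2.52 for MAP1A, 2.18 to 2.37 for MLLT11 and 1.93 to 2.14 for TMEM144. Scaling to equal totals raised the median log2 change of all transcripts from 0.0018 to 0.17, and rises made up 63.6% of calls in place of 47.2% (2967 rises and 1699 falls). With that scaling 3 neighbours passed in place of 1, and leaving out 1 library gave 1 to 2. With the replicate block 2301 rose, 2520 fell and 2 neighbours passed, one of them C1orf56. Correlations of same-numbered deviations were 0.0471, 0.0765 and 0.0768, and scrambled replicate 1 correlated most with knockdown replicate 3 (0.0886), so the block is no pairing. Leaving out 1 library in turn gave 1852 to 1944 rises and 2069 to 2202 falls. Of the values of the other genes, 1292 kept their side of the threshold, 45 (11 genes) were lost, 21 (12 genes) were gained, and 0 of those that passed changed sign. Of those that did not pass, 7 genes had the other sign in 16 values. Depth limits rows of few reads, such as TCF7 and the untested family members.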
